A study of Homo sapiens with 12 samples.

Results

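The comparison described here set MDA-MB-231 cells kept without glucose and without glutamine against the same cells kept in full medium. Its members are 6 of the 12 libraries of the series, 3 per medium, chosen by their labels alone, and those 9270 of 63187 genes whose normalized count reached 10 or more in 3 or more libraries out of the 12. MDA-MB-231 is an established human breast adenocarcinoma line of mesenchymal character that lacks the oestrogen receptor. All cells had grown in 10% serum and were then held for 36 h in a medium with 3% serum. The full medium had 25 mM glucose and 4 mM glutamine, and the deficient medium had 0 mM of both. Libraries from 2 further media, one with 25 mM glucose and no glutamine (called glucose-only) and one with 4 mM glutamine and no glucose (glutamine-only), entered the same model and served to ask what the loss of both nutrients did beyond the loss of either. No genetic change or drug was part of the design. Total RNA depleted of ribosomal RNA was sequenced with a strand-specific protocol. The labels do not say whether the 3 libraries of a medium were separate cultures. The p-values below therefore set differences between media against the spread among libraries of the same medium, estimated over all 12. That spread may not be one between cultures.

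The 6 libraries held 930776 to 1473587 reads in genes, which is a modest depth, and 1 read was worth 0.661 to 1.30 normalized counts over all 12. Mitochondrial ribosomal RNA took 15.3 to 17.1% of reads in deficient and 8.74 to 10.6% in full medium, and protein-coding genes took 47.3 ± 4.34% and 55.4 ± 3.94% (SD, n = 3). The 7 fibroblast, 8 blood cell and 5 adipocyte markers examined were all under 10 in all 12 libraries, as were 4 of 6 endothelial and 6 of 12 luminal epithelial markers. The luminal keratin gene KRT18 reached 396. Of 8 markers of mesenchymal lines 1, SPARC, was under 10 in all 12 libraries, and VIM reached 1047. At the threshold of 10, ACACB, FKBP7 and SRCAP lay just inside with a third-highest value of 10.1, and SEMA3B, VRK2 and DNMT3B just outside with 9.92. Of the genes kept, 346 passed the filter through the deficient libraries alone and 307 through the full-medium libraries alone.

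Glucose and glutamine are the main carbon and nitrogen sources of cultured cancer cells. Glucose also feeds the sugar chains that proteins need to fold in the endoplasmic reticulum (ER), and glutamine supplies nitrogen for nucleotides, hexosamines and other amino acids. Shortage of amino acids or unfolded ER proteins activates kinases that phosphorylate eIF2, which lowers translation and raises ATF4 and its targets, the integrated stress response. Unfolded proteins in the cytosol release the heat shock factors, which bind heat shock elements in chaperone promoters.

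Values below are normalized counts, given for replicates A, B and C in that order, and changes are differences of log2(normalized count + 1) between deficient and full medium with the standard error (SE) of the limma fit. Gene positions are those of RefSeq on GRCh38.p14. A gene is called changed where its p, adjusted by Benjamini and Hochberg's method for the 9270 genes tested, is under 0.05. By this rule 4804 genes differed, 51.8% of those tested. Of these 2440 were higher (26.3%) and 2364 lower (25.5%) in deficient medium, and 1012 (10.9%) and 1196 (12.9%) were so by at least 2-fold. With the deposited scaling rises reached further than falls: 25 called genes rose and 6 fell by at least 4 on the log2 scale. The rises of this size include NR4A1, SEMA4A, HSPA7, BICDL2 and ENSG00000289589, which had 0 reads in full medium. The size of their change depends on the 1 added to each value. The 3 deficient and 3 full-medium values did not overlap in 5309 genes (57.3%). The split depended on scaling, since with every library scaled to the same total (equal totals) the median of all changes shifted by -0.39 and this left 23.6% of 4943 called genes higher, in place of 50.8%. Counts of list members are therefore to be read against all genes, with a median of 0.01, 26.3% higher and 25.5% lower. Where the balance of a list turned with equal totals, both counts are given.

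**Figure D1:**
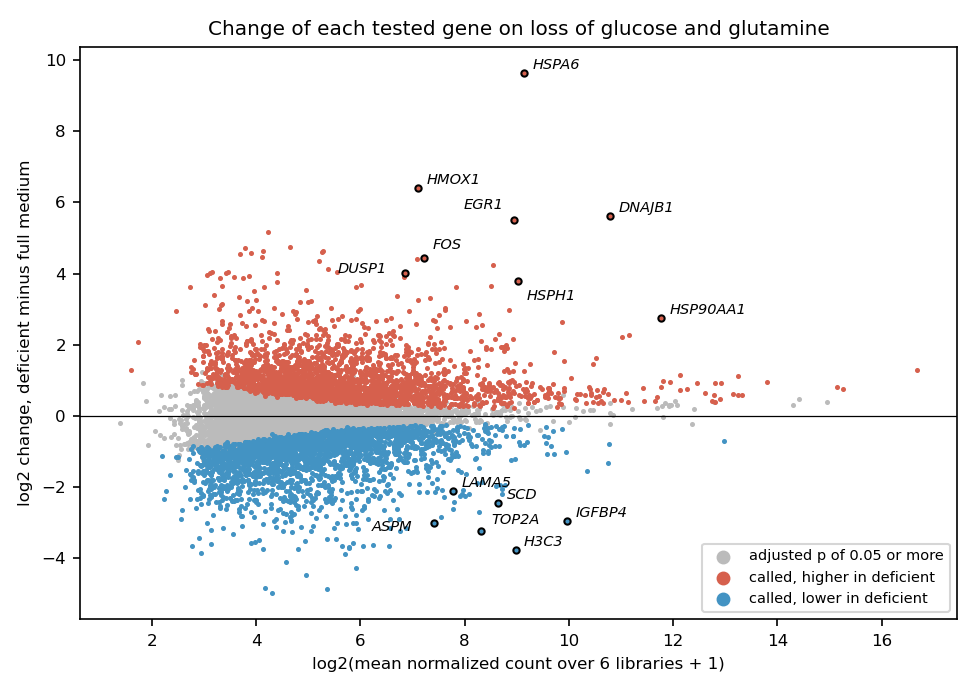
Change of every tested gene (vertical axis, log2 difference of deficient minus full medium) against its mean over the 6 libraries (horizontal axis, log2 of normalized count + 1), 1 point per gene, coloured by call. Changes above 4 include the stress genes HSPA6 (9.64), HMOX1 (6.41) and EGR1 (5.51), while the strongest falls among abundant genes include H3C3 (-3.76) and TOP2A (-3.23).

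Cytosolic chaperones were among the greatest rises. HSPA6, a strictly inducible HSP70 (ENSG00000173110, chr1:161524540-161526894), read 1148, 1117 and 1120.4 in the deficient libraries and 0, 0 and 1.83 in the full-medium libraries. The medium without nutrients thus gave 3250 reads and the full medium 2, a ratio of 2.07e+03 with a 95% exact counting interval from 571 to 1.71e+04, which covers counting error only. HSPA7, a near-identical pseudogene of HSPA6, had 72 reads against 0, at least 30.5-fold higher against a floor of 3 reads over the group. Reads of the pair may have been split in counting. DNAJB1, the J-domain partner that delivers clients to HSP70 (ENSG00000132002, chr19:14514769-14560391), had 3341, 3502 and 3617 in the deficient libraries and 72.7, 70.5 and 66.0 in the full-medium libraries. Its log2 change was 5.62 ± 0.11 (adjusted p = 5.2e-26), and the highest full-medium value was far under the lowest deficient one. HSPH1, an exchange factor of the HSP110 family, read 975, 990.1 and 962 in the deficient libraries and 69.4, 61.1 and 79.8 in the full-medium libraries (log2 change 3.79 ± 0.12).

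The exchange factor and aggregate handler BAG3 read 436, 450.4 and 458 in the deficient libraries and 60.8, 84.6 and 64.2 in the full-medium libraries. HSPA8, the constitutive HSP70, was already abundant and read 3807, 3376 and 4081 in the deficient libraries and 790.1, 699 and 859.5 in the full-medium libraries (log2 change 2.26 ± 0.10, adjusted p = 9.01e-17). HSP90AA1, the inducible HSP90, read 5531, 6119 and 6506 in the deficient libraries and 855, 919 and 921 in the full-medium libraries. In each of these 3 genes the lowest deficient value lay above the highest full-medium value, and the spread within a medium was small beside the gap. Of 16 tested HSP70 and HSP110 chaperones and exchange factors 9 rose and none fell (median 0.85, against 0.01 over all genes, of which 26.3% were higher). The 7 members that did not pass included HSPA4 (0.21) and HSPA14 (0.36), both HSP70 relatives, and the exchange factors BAG4 (0.16) and BAG5 (-0.18). With equal totals 8 rose and 1 fell.

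The partners of HSP70 and HSP90 rose in part. Of 20 tested cytosolic and nuclear J-domain proteins 9 rose and 3 fell (median 0.43), or 7 and 3 of 18 without those that passed the filter through 1 medium alone. The rises included DNAJB4 (2.68 ± 0.29), the ribosome-bound DNAJC2 (1.96 ± 0.23) and DNAJA1 (1.42 ± 0.10), and the falls DNAJC13 (-1.33), an endosomal protein, and DNAJC5 (-0.89), a synaptic vesicle co-chaperone. Of 14 HSP90 genes and co-chaperones 7 rose and 3 fell (median 0.33), or 5 and 4 with equal totals. The immunophilin FKBP4 rose by 2.59 ± 0.15 and STIP1, which bridges HSP70 and HSP90, by 1.90 ± 0.14. P4HA1, a collagen prolyl hydroxylase that the list also held, fell by 1.49 on the log2 scale. Among 11 subunits of the TRiC chaperonin and of prefoldin, which fold actin and tubulin, 7 rose and none fell (median 0.63), with PFDN2 at 1.95 ± 0.19 and TCP1 at 1.58 ± 0.13. With equal totals 4 rose and 1 fell. Of 9 small heat shock and mitochondrial chaperone and protease genes 5 rose and 2 fell (4 and 3 with equal totals). The small heat shock gene HSPB1 rose by 2.21 ± 0.15 and the mitochondrial chaperonin genes HSPD1 and HSPE1 by 2.15 ± 0.11 and 1.94 ± 0.16, while the protease genes CLPP (-0.91) and SPG7 (-0.71) fell.

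Proteasome genes had no shared direction. Of 40 tested proteasome subunits and assembly factors 7 rose, 7 fell and 26 did not pass, with changes from -0.94 to 0.79 and a median of -0.09. With equal totals none rose and 21 fell. ZFAND2A, a stress-inducible proteasome-associated zinc finger protein, read 224, 267 and 280.3 in the deficient libraries and 8.60, 10.3 and 15.6 in the full-medium libraries (log2 change 4.40 ± 0.19, adjusted p = 1.68e-17). UBB, a polyubiquitin gene, rose by 0.93 ± 0.12.

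Promoters of 3 chaperone genes are shown because they hold a heat shock element, the letters that heat shock factors bind. The element was searched as 3 alternating units, GAA, any 2 bases, TTC, any 2 bases and GAA, or the same on the other strand, in RefSeq windows of 300 bases (250 before to 50 after each start, GRCh38.p14). It was present in 172 of 35116 windows (0.49%). Of 33 tested protein-coding genes with it in at least 1 window, 20 rose, 4 fell and 9 did not pass (median 0.78), against 26.3% higher among all genes. Among genes with a single window it was in 7 of 532 (1.32%) called at least 2-fold higher and in 0 of 645 called at least 2-fold lower, with 14 of 5006 (0.28%) over all such genes. A match is a run of letters and not a measured binding site, and DNAJB1 and HSPH1 have none in their windows. The 150 bases before the start of HSPA6 (chr1:161524390-161524539, plus strand), HSP90AA1 (chr14:102087045-102087194, minus strand, 1 of its 2 starts) and HSPA8 (chr11:123062137-123062286, minus strand) follow, 5′ to 3′, with the element in capitals.
HSPA6: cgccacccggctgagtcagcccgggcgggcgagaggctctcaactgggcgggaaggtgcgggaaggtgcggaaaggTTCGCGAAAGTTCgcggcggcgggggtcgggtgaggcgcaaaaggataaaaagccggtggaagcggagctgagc
HSP90AA1: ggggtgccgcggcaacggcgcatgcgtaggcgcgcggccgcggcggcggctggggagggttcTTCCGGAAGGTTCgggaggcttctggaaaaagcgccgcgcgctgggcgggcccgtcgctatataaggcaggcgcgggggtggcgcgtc
HSPA8: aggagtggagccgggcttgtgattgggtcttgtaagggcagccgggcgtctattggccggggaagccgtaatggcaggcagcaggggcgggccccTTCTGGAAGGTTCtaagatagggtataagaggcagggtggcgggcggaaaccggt
The element begins 74, 88 and 55 bases before the start in these 3 genes. Other carriers that rose were the collagen chaperone SERPINH1 (2.49 ± 0.11), HSPD1 and HSP90AB1 (1.45 ± 0.09). The 4 that fell were ST3GAL5 (-1.44), GLIS3 (-0.99), XPO1 (-0.59) and HNRNPA2B1 (-0.36), all named after their values were seen.

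Immediate early genes, which encode transcription factors induced by growth factor and stress kinases without new protein synthesis, rose in 23 of 26 tested cases. EGR1 (ENSG00000120738, chr5:138465479-138469303) read 907, 978 and 992 in the deficient libraries and 21.2, 21.6 and 17.4 in the full-medium libraries (log2 change 5.51 ± 0.15, adjusted p = 1.33e-21). FOS read 305, 262 and 286 in the deficient libraries and 11.9, 12.2 and 11.9 in the full-medium libraries (log2 change 4.45 ± 0.27). In both genes every deficient value was far above every full-medium value, and the 3 libraries of a medium lay close together. The median change of the 26 was 1.85, with 1 fall and 2 that did not pass. Without the 5 that passed the filter through the deficient libraries alone, 19 of 21 rose and 1 fell, and with equal totals 19 of 26 rose and 1 fell. The one that fell was FOSL2 (-0.98), and JUND (0.26) and IER5L (0.50) did not pass. FOSB (4.64 ± 0.39) and CSRNP1 (3.69 ± 0.24) were further members, and NR4A1, a nuclear receptor, had 102 reads against 0, at least 43.2-fold higher.

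Negative regulators of the same kinases were divided. DUSP1, a phosphatase that switches off MAP kinases, read 229, 203 and 217 in the deficient libraries and 9.92, 13.2 and 14.7 in the full-medium libraries (log2 change 4.01 ± 0.23, adjusted p = 1.78e-14). DUSP10 (2.54 ± 0.25), DUSP5 (2.49 ± 0.12) and SPRY2 (1.89 ± 0.15) rose as well, yet over the 17 tested members 8 rose and 7 fell (median 0.26), or 6 and 7 with equal totals. The receptor gene EGFR read 652, 668 and 699 in the deficient libraries and 189, 191 and 187 in the full-medium libraries (log2 change 1.83 ± 0.09). Its ligand gene HBEGF rose by 1.81 ± 0.18 whereas the ligand gene TGFA fell from 52.6 ± 1.94 to 18.2 ± 3.63. MYC, a growth-promoting transcription factor, rose by 2.84 ± 0.12 and the small GTPase gene RND3, which opposes RhoA, by 3.31 ± 0.19. DKK1, a secreted Wnt inhibitor, read 457, 371 and 437 in the deficient libraries and 29.8, 31.02 and 40.4 in the full-medium libraries (log2 change 3.61 ± 0.14). Of 29 YAP and TEAD targets 16 rose and 5 fell (median 0.39), among them ANKRD1 (2.31 ± 0.10) and CCN2 (2.46 ± 0.12), but with equal totals 10 rose and 9 fell.

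**Figure D2:**
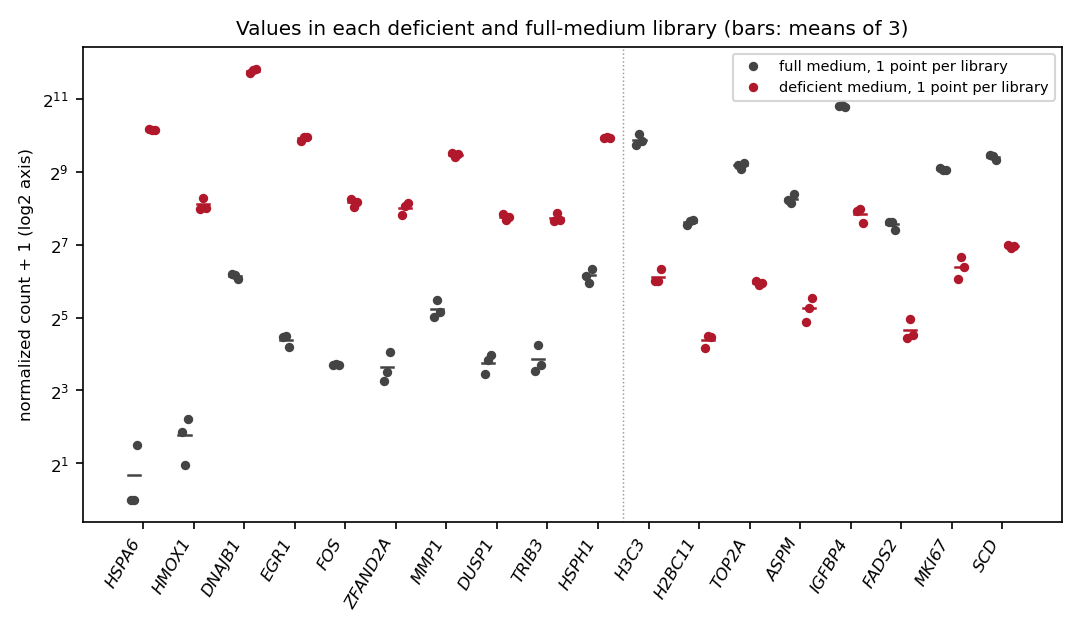
Normalized count + 1 (vertical axis, log2 scale) of 10 genes among the highest rises and 8 among the deepest falls, with 1 point per library and a bar at the mean of 3, full medium in grey and deficient in red. In all 18 genes the 3 deficient values lie apart from the 3 full-medium values, with HSPA6 at 0 to 1.83 in full medium. The rule that named the highest and lowest genes asked for this separation, so it is no result.

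Factors of the integrated stress response rose in 13 of 22 tested cases, against 26.3% of all genes. PPP1R15A, which recruits the phosphatase that reverses eIF2 phosphorylation, read 643, 729 and 641 in the deficient libraries and 52.2, 46.1 and 60.5 in the full-medium libraries (log2 change 3.65 ± 0.11, adjusted p = 1.77e-20). DDIT3, a death-promoting factor, read 88.5, 89.4 and 83.1 in the deficient libraries and 4.63, 1.88 and 8.26 in the full-medium libraries, and ATF3 65.1, 82.1 and 59.8 in the deficient libraries and 3.31, 3.76 and 0.917 in the full-medium libraries. Both were under 10 in each full-medium library and far above it in each deficient one. TRIB3, a pseudokinase induced by ATF4, read 200.5, 233 and 204 in the deficient libraries and 10.6, 17.9 and 11.9 in the full-medium libraries. The ATF4 messenger itself, which is regulated largely in translation, went from 83.9 ± 5.22 to 142 ± 4.73 (SD, n = 3; log2 change 0.75 ± 0.11). The median over these factors and eIF2 regulators was 0.67, and without the 4 members that passed the filter through 1 medium alone, ATF3 among them, 12 of 18 rose and 2 fell. With equal totals 8 of 22 rose and 3 fell. The 2 that fell with the deposited scaling were the eIF2 kinase genes EIF2AK2 (-0.47) and EIF2AK1 (-0.49).

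Amino acid carriers rose in part. SLC3A2, the shared heavy chain of several exchangers, read 363, 354 and 335 in the deficient libraries and 42.98, 36.7 and 47.7 in the full-medium libraries (log2 change 3.02 ± 0.11, adjusted p = 1.72e-19). The glutamine transporter SLC38A2 read 1446, 1323 and 1509.5 in the deficient libraries and 462, 509 and 505 in the full-medium libraries. SLC1A5, another glutamine carrier, and SLC7A5, a leucine exchanger, rose by 1.18 ± 0.13 and 1.02 ± 0.15. Of 21 tested carriers 11 rose, 3 fell and 7 did not pass (median 0.79), or 8 and 6 with equal totals. Over all genes 26.3% rose and 25.5% fell. Among polyamine genes, ODC1, the rate-limiting enzyme of polyamine synthesis, rose by 2.28 ± 0.14, and 7 of the 12 members rose and 3 fell (5 and 4 with equal totals).

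ER chaperones and degradation genes rose, with wide differences among members. HSPA5, the main ER chaperone, read 1623, 1529.8 and 1643 in the deficient libraries and 239, 261 and 268 in the full-medium libraries (log2 change 2.64 ± 0.09, adjusted p = 1.98e-19). DNAJB9, its partner in degradation and sensor control, read 242, 208 and 299 in the deficient libraries and 26.4, 19.7 and 29.4 in the full-medium libraries (log2 change 3.26 ± 0.15). HERPUD1, which organizes the retrotranslocation complex, read 128, 134 and 144 in the deficient libraries and 28.4, 28.2 and 24.8 in the full-medium libraries. In none of the 3 did the media overlap. Of 30 tested genes of ER-associated degradation and translocation 17 rose and 1 fell (median 0.45), but with equal totals 6 rose and 6 fell. The shares over all genes were 26.3% higher and 25.5% lower. Among 21 disulfide isomerases and ER oxidases 9 rose and 4 fell (6 and 6 with equal totals). The oxidase ERO1B rose by 3.04 ± 0.28 and MANF, a secreted ER factor, by 1.99 ± 0.16, while TMX4, a membrane thioredoxin, fell from 79.8 ± 6.05 to 8.81 ± 4.26 (log2 change -3.16 ± 0.25). Of 28 N-glycosylation genes 10 rose and 3 fell (4 and 10 with equal totals), and of 29 ER-Golgi coat genes 9 and 3 (0 and 10).

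The ER stress element, a CCAAT followed after any 9 bases by CCACG on either strand, is bound by ATF6 with NF-Y and contains a CCAAT box. It was in 27 of 35116 windows (0.0769%). Of the 13 tested protein-coding genes with it 10 rose, none fell and 3 did not pass (median 1.46), against 26.3% higher and 25.5% lower among all genes. Among genes with a single window it was in 7 of 532 (1.32%) called at least 2-fold higher and in 0 of 645 called at least 2-fold lower. Over all such genes it was in 10 of 5006 (0.2%). The 3 that did not pass were CANX (0.56, adjusted p = 0.0943), TRIM5 (0.09) and TMEM120A (-0.88). Its carriers also include XBP1, a transcription factor of the unfolded protein response (2.09 ± 0.12), and HSP90B1, the HSP90 of the ER (1.64 ± 0.10). The 150 bases before the start of HSPA5 (chr9:125241344-125241493, minus strand), HSP90B1 (chr12:103930260-103930409, plus strand) and XBP1 (chr22:28800570-28800719, minus strand, 1 of its 2 starts) are shown for this reason, 5′ to 3′, the element in capitals.
HSPA5: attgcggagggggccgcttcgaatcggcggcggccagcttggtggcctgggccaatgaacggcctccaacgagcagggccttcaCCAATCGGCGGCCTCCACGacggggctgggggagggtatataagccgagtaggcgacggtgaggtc
HSP90B1: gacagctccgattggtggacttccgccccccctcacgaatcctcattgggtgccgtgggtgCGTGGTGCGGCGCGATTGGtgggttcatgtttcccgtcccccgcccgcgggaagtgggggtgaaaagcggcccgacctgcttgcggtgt
XBP1: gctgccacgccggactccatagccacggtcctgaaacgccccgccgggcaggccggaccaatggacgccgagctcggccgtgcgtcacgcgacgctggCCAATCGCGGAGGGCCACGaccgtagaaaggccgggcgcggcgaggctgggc
In HSP90B1 the match is on the opposite strand. The element starts 66, 89 and 52 bases before the 3 starts.

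Of 40 tested translation initiation factors 25 rose, against 26.3% of all genes. EIF3A, the largest scaffold subunit of the factor that loads the small ribosomal subunit, read 716, 728 and 764 in the deficient libraries and 267, 248 and 268 in the full-medium libraries (log2 change 1.49 ± 0.09, adjusted p = 2.82e-14). The elongation factor EEF2 rose by 1.26 ± 0.10, and PABPC4, a poly(A)-binding protein, by 1.78 ± 0.13. EIF4EBP2, a repressor of cap-dependent initiation, moved the other way and read 24.7, 18.1 and 22.5 in the deficient libraries and 108, 102 and 143 in the full-medium libraries (log2 change -2.38 ± 0.16). Over the list 3 members fell (median 0.66), and with equal totals 16 rose and 7 fell. Of 29 subunits of RNA polymerases I and III, which make ribosomal and transfer RNA, 11 rose and 1 fell (8 and 4 with equal totals), with POLR1B at 1.52 ± 0.20. Of 63 mitochondrial ribosomal proteins 12 rose, 3 fell and 48 did not pass, and with equal totals 2 rose and 16 fell. MRPL18 was the largest rise among the mitochondrial ribosomal proteins (1.83 ± 0.23). Among all genes 26.3% rose and 25.5% fell.

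Genes of iron and sugar metabolism went both ways. HMOX1, which degrades haem, read 249.9, 312 and 257 in the deficient libraries and 2.64, 0.94 and 3.67 in the full-medium libraries (log2 change 6.41 ± 0.44, adjusted p = 8.87e-13). The ferritin genes FTL (2.23 ± 0.11) and FTH1 (2.38 ± 0.15), which have many pseudogenes that can take their reads, also rose, while over 19 iron genes 7 rose and 6 fell (4 and 10 with equal totals). In the hexosamine pathway, which joins glucose and glutamine into UDP-GlcNAc, UAP1 read 286, 275 and 308 in the deficient libraries and 39.7, 44.2 and 46.8 in the full-medium libraries (log2 change 2.71 ± 0.14). GNPDA1, which can return glucosamine phosphate to glycolysis, rose by 2.32 ± 0.15. In this list 6 of 13 rose and 5 fell (6 and 6 with equal totals). Of 18 genes of pyruvate fate and gluconeogenesis 4 rose, 4 fell and 10 did not pass (3 and 10 with equal totals). The pyruvate dehydrogenase kinases, which hold back pyruvate oxidation, differed among themselves, with PDK3 at -2.80 ± 0.22, PDK1 at -2.35 ± 0.21 and PDK4, which passed the filter through the deficient libraries alone, at 0.98 ± 0.41. The opposing phosphatase PDP1 rose by 1.58 ± 0.11. BNIP3, a mitophagy receptor, read 74.2, 94.2 and 95.5 in the deficient libraries and 395, 423 and 395 in the full-medium libraries (log2 change -2.20 ± 0.12), and the lactate exporter SLC16A3 fell by 1.40 on the log2 scale. SLC2A1 and SLC2A3, both glucose transporters, went apart, with SLC2A1 at -0.60 ± 0.12 and SLC2A3 at 1.98 ± 0.14. GLUL, glutamine synthetase, rose by 0.96 ± 0.14.

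Genes of sterol control fell in the majority. SCD, the stearoyl-CoA desaturase, read 126, 118 and 124 in the deficient libraries and 697, 683 and 642 in the full-medium libraries (log2 change -2.45 ± 0.10, adjusted p = 7.42e-18). FADS2, a desaturase of polyunsaturated fatty acids, read 20.8, 30.2 and 21.7 in the deficient libraries and 197, 196 and 167 in the full-medium libraries. In both genes the media did not overlap. MYLIP, a ubiquitin ligase gene, rose (2.49 ± 0.17), as did the cholesterol exporter ABCA1 (1.88 ± 0.26). Of 20 genes of the SREBP machinery and lipoprotein uptake 4 rose and 13 fell (median -0.78; 2 and 13 with equal totals), with SREBF2 at -1.67 ± 0.16 and SREBF1 at -0.89 ± 0.18. Among lipid droplet and phospholipid genes the calls were divided, with 7 higher and 5 lower of 19 (4 and 10 with equal totals).

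**Figure D3:**
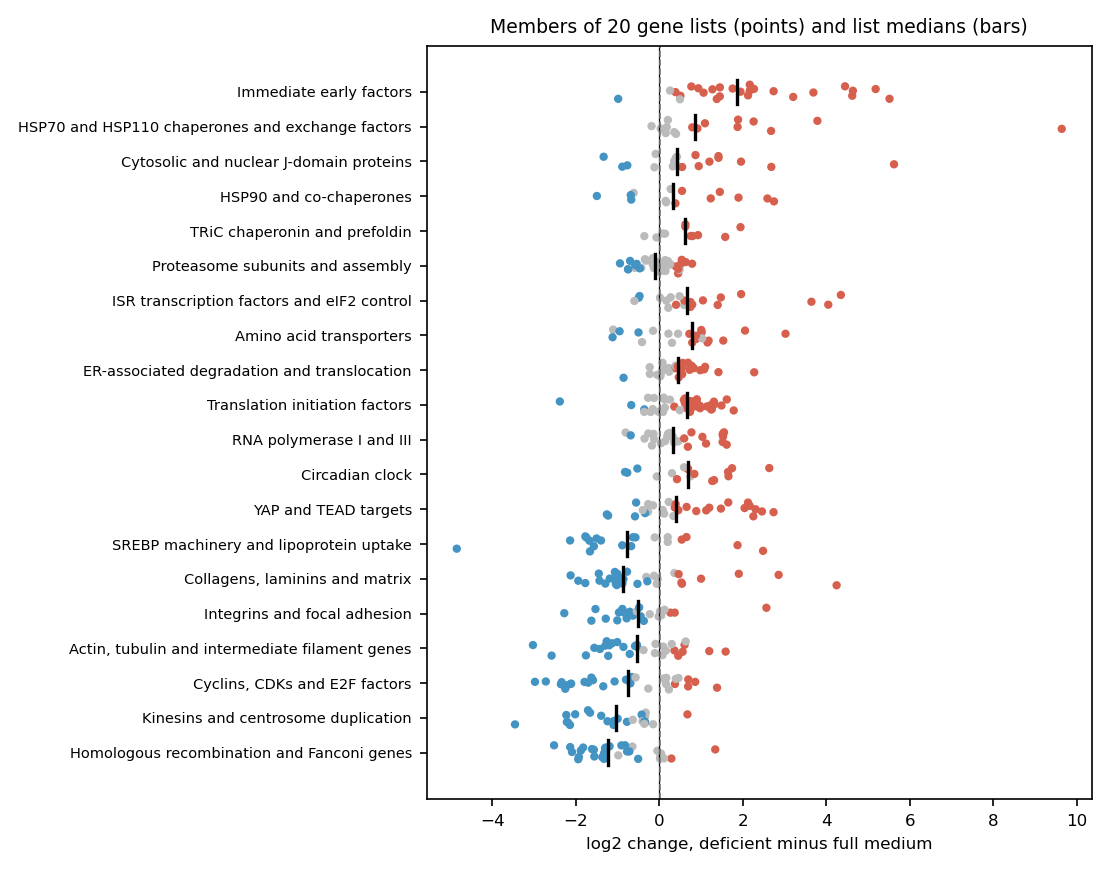
Log2 change of each tested member (points, red for higher, blue for lower, grey for not called) of 20 gene lists, with the list median as a bar, a line at 0 and a dashed line at the median of all genes (0.01). Medians run from 1.85 in immediate early factors to -1.24 in homologous recombination and Fanconi genes, and most lists hold members on both sides of 0.

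Histone and division genes were among the deepest falls. Since these are bulk libraries, fewer dividing cells and less RNA per dividing cell cannot be told apart. H3C3, a replication-dependent histone gene with near-identical copies, read 62.5, 62.8 and 80.0 in the deficient libraries and 854, 1049.9 and 908 in the full-medium libraries (log2 change -3.76 ± 0.11, adjusted p = 2.59e-21). TOP2A, the topoisomerase of dividing cells, read 62.5, 58.0 and 60.6 in the deficient libraries and 575, 540.5 and 605 in the full-medium libraries (log2 change -3.23 ± 0.10). ASPM, a spindle pole protein, read 28.6, 37.4 and 45.03 in the deficient libraries and 296, 278 and 333 in the full-medium libraries. MKI67, the proliferation marker, read 65.1, 100.2 and 83.1 in the deficient libraries and 546, 524 and 527 in the full-medium libraries. The deficient values of these 4 genes lay far under their full-medium values in every library. H2BC11, H2BC17, H1-4, H2BC21, H3C2 and H4C3, 6 other histone genes among the 15 deepest falls of genes with a mean of at least 100, changed by -3.23 to -2.24.

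Of 24 kinesins and centrosome genes 17 fell and 1 rose (median -1.04), with the mitotic kinesins KIF20A at -3.45 ± 0.27 and KIF2C at -2.21 ± 0.18. Of 30 homologous recombination and Fanconi genes 21 fell and 2 rose (median -1.24), including the helicase BRIP1 (-2.52 ± 0.28) and the checkpoint mediator CLSPN (-2.09 ± 0.19). Of 30 cyclins, kinases and E2F factors 17 fell and 5 rose (median -0.74), with CCNA2 at -2.72 ± 0.27, CCNB1 at -2.25 ± 0.18 and the activator MYBL2 at -2.98 ± 0.32. CCND1, a cyclin that responds to growth factors, read 139, 140.1 and 135 in the deficient libraries and 274, 307 and 292 in the full-medium libraries (log2 change -1.07 ± 0.09). The nuclear envelope gene LMNB1 fell from 82.2 ± 7.79 to 9.22 ± 0.826. The cell cycle inhibitor CDKN1A rose by 0.92 ± 0.13 and the growth arrest genes GADD45A and GADD45B by 2.68 ± 0.19 and 2.74 ± 0.20. Of 19 tested CDK inhibitors and p53 targets, however, 9 rose and 5 fell (median 0.14), or 9 and 8 with equal totals. Changes in that list went down to -1.72, and 26.3% of all genes rose and 25.5% fell.

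The cell cycle genes homology region, TTTGAA on either strand, is bound by the complexes that repress late cell cycle genes in resting cells. It was in 116 of 645 single-window genes called at least 2-fold lower (18%) and in 47 of 167 called at least 4-fold lower (28.1%), against 472 of 5006 (9.43%) over all such genes and 40 of 532 (7.52%) called at least 2-fold higher. The CCAAT box, often paired with it, was in 57.5% of those at least 4-fold lower, in 38.9% of all and in 34.6% of all windows. It was also in 48.3% of the 116 genes at least 4-fold higher, so a raised share was not particular to the falls. Of all 35116 windows 15.2% held TTTGAA. A run of 6 letters arises often by composition, and the shares are descriptions. The 150 bases before the start of PLK1, a mitotic kinase (chr16:23678739-23678888, plus strand), CCNB2, a mitotic cyclin (chr15:59104996-59105145, plus strand), and KIF11, a spindle motor (chr10:92592980-92593129, plus strand), were chosen after their values were seen and carry it, in capitals, 29, 29 and 28 bases before the start.
PLK1: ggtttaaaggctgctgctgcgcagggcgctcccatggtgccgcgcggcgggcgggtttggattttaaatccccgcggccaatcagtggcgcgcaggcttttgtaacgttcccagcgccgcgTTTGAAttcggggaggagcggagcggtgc
CCNB2: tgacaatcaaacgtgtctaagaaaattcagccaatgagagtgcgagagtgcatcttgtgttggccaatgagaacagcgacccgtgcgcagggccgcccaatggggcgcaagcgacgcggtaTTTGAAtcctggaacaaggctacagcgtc
KIF11: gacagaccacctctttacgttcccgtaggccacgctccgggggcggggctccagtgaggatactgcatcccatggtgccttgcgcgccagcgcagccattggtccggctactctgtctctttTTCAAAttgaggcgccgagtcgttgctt
These genes changed by -2.22 ± 0.34, -2.12 ± 0.27 and -2.01 ± 0.18. Other motifs were searched in the same way. The sterol regulatory element TCACCCCAC was in 0.155% of genes at least 2-fold lower and 0.419% of all. The antioxidant element TGANNNNGC in 45.7% of those at least 2-fold higher and 44.3% of all. The E2F site GGCGGGAA in 8.06% of those at least 2-fold lower and 5.89% of all, and the cAMP element TGACGTCA in 4.7% of those higher and 4.16% of all. The CEBP-ATF element TGATGNAA was in 2.44% of those higher and 1.38% of all.

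Matrix, adhesion and cytoskeleton genes fell more often than they rose. IGFBP4, a secreted binder of insulin-like growth factors, read 241, 251 and 192 in the deficient libraries and 1764, 1795 and 1749 in the full-medium libraries (log2 change -2.96 ± 0.10, adjusted p = 1.05e-19). ITGA1, a collagen receptor subunit, read 74.2, 60.4 and 64.4 in the deficient libraries and 322, 323 and 325 in the full-medium libraries (log2 change -2.27 ± 0.10). LAMA5, a laminin chain, read 84.6, 95.4 and 66.0 in the deficient libraries and 378, 361 and 332 in the full-medium libraries. Of 32 collagens, laminins and other matrix genes 20 fell and 7 rose (median -0.87). Among those that rose, the collagenase MMP1 read 729, 675 and 707 in the deficient libraries and 31.1, 43.2 and 34.9 in the full-medium libraries (log2 change 4.25 ± 0.12). Of 24 integrins and focal adhesion genes 14 fell and 3 rose (median -0.51), with ITGA6 at -1.53 ± 0.11 and the actin crosslinker FLNC, which rose, at 2.57 ± 0.12. Of 30 actin, tubulin and intermediate filament genes 16 fell and 6 rose, with TUBA1A at -2.58 ± 0.19 and, of the genes often used as references, ACTB at -0.86 ± 0.09. GAPDH fell by 1.07.

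Secreted signals and clock genes were mixed. Of 21 chemokines, cytokines and NF-kB feedback genes 7 rose and 10 fell (3 and 10 with equal totals). The chemokine CXCL1 went from 93.4 ± 4.96 to 10.6 ± 2.35 and the macrophage growth factor CSF1 from 405 ± 14.5 to 95.7 ± 6.61, whereas the interleukin gene IL11 rose from 11.6 ± 3.03 to 81.1 ± 7.26. Of 17 circadian clock genes 10 rose and 3 fell (median 0.69), or 7 and 4 with equal totals. Of these rises 3, NR1D1 among them, were in genes that passed the filter through the deficient libraries alone, and without them 7 of 14 rose and 3 fell. The repressors NR1D1 (2.64 ± 0.38), CRY1 (1.65 ± 0.18) and NFIL3 (1.74 ± 0.24) rose, and CLOCK (-0.52), RORA (-0.77) and TIMELESS (-0.82) fell. Of 38 V-ATPase and lysosomal hydrolase genes 19 rose and 6 fell, but with equal totals 4 rose and 11 fell. Of 31 genes of mTORC1, AMPK and nutrient sensing 9 rose and 6 fell, or 6 and 12 with equal totals. Both lists stand beside 26.3% higher and 25.5% lower over all genes. FNIP1, a partner of folliculin at the lysosome, rose by 1.56 ± 0.12, the Rag GTPase gene RRAGC by 2.02 ± 0.21 and the transcription factor gene MITF by 1.87 ± 0.29.

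Transcripts that encode no nuclear protein moved in several ways, and the share of reads in protein-coding genes moved with them, as given above; its part in these results was not tested. Of 121 small nucleolar and Cajal body RNAs 74 rose and 1 fell (median 0.48), or 20 and 11 with equal totals. SNORA80B, a guide RNA, read 357, 437 and 308 in the deficient libraries and 139.5, 165 and 126 in the full-medium libraries (log2 change 1.34 ± 0.13). Of 19 transcripts that host such RNAs 11 rose and 1 fell, SNHG7 by 1.92 ± 0.26 and SNHG17 by 1.52 ± 0.18. Of 13 mitochondrial messengers 12 rose and of 19 mitochondrial transfer RNAs 16 rose, with none lower in either class. With equal totals 7 and 8 rose and none fell. MT-CO1, a subunit of cytochrome oxidase, read 5993, 6354 and 6238 in the deficient libraries and 2720.1, 2865 and 2825 in the full-medium libraries. Of 276 long noncoding RNAs 70 rose and 72 fell (48 and 101 with equal totals). KCNQ1OT1, an imprinted transcript antisense to KCNQ1, read 349, 338 and 354 in the deficient libraries and 39.01, 48.9 and 43.1 in the full-medium libraries (log2 change 2.97 ± 0.12), and MIR17HG, the host of a growth-promoting microRNA cluster, rose by 2.46 ± 0.24. HELLPAR fell by 2.61 on the log2 scale. How strand entered the counting is not given in the sources used here, so reads of antisense transcripts cannot be told apart from those of the genes they overlap. Of 83 processed pseudogenes, whose reads may come from their parent genes, 42 rose and 2 fell (14 and 5 with equal totals).

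A further question was where cells without both nutrients differed from cells with either. Against all 3 other media in the same direction, 1258 genes were higher (13.6%) and 1054 lower (11.4%), that is 51.56% and 44.59% of the genes called higher and lower against full medium. With equal totals the share of higher genes among those past both was 25.7% in place of 54.4%. Of the 2440 genes that rose against full medium, 349 also rose in both single-nutrient media and 1479 in neither. Of the 2364 that fell, 492 fell in both and 1266 in neither. The comparisons behind the genes past both share the deficient libraries. Those behind the genes that changed in both or neither single-nutrient medium share the full-medium libraries. All these counts therefore describe and do not test. The interaction, which asks whether the change on losing both nutrients differs from the sum of the changes on losing each, was above the sum in 1438 genes (15.5%) and below it in 1020 (11%).

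Chaperones and immediate early genes often lay past both single-nutrient media. DNAJB1 was at 69.8 ± 3.402 in full, 55.7 ± 8.13 in glucose-only, 174 ± 12.5 in glutamine-only and 3487 ± 138 in deficient medium (SD, n = 3). It was higher in deficient than in glucose-only medium by 5.95 and than in glutamine-only by 4.32 on the log2 scale, and its interaction was 4.64 (adjusted p = 1.69e-19). DUSP1 (-0.07 and 0.59 in the 2 single media, 4.01 in deficient) and HSP90AA1 (-0.47, -0.17 and 2.75) were also called against each of the other media. Of the 26 immediate early factors 21 were past both media, against 13.6% of all genes, and 16 above the sum, against 15.5%. Without the 5 that passed the filter through the deficient libraries alone these were 18 and 14 of 21. Of the 16 HSP70 and HSP110 chaperones and exchange factors 8 were past both and 8 above the sum. Initiation factors were past both media in 21 of 40 and the TRiC and prefoldin genes in 7 of 11. The latter had medians of -0.40 and -0.25 in glucose-only and glutamine-only medium against 0.63 in deficient. Counts of list members past both media or for the interaction, here and below, use the deposited scaling and were not made with equal totals.

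Of the 21 amino acid carriers 1, of the 30 ER degradation and translocation genes 1 and of the 21 disulfide isomerases and oxidases 0 were past both media on the higher side, against 13.6% of all genes. TRIB3 stood at 146 ± 5.32 in glucose-only and 141 ± 8.19 in glutamine-only medium against 213 ± 17.8 in deficient, -2.79 relative to the sum (adjusted p = 2.73e-11). SLC3A2 differed from glutamine-only medium by 0.09 (adjusted p = 0.522). SLC1A5 was lower in deficient than in both single media, with differences of -0.36 and -0.49 (adjusted p = 0.0308 and 0.00414). Of the 21 amino acid carriers 13 were below the sum and none above, and their medians were 0.77, 0.94 and 0.79 in glucose-only, glutamine-only and deficient medium. In the ER, HERPUD1 differed from glutamine-only medium by -0.01 (adjusted p = 0.972), HSPA5 by 0.33 (adjusted p = 0.00593) and CALR, a lectin chaperone, by -0.41. Of the 30 degradation and translocation genes 9 were below the sum and 1 above. A p that misses the threshold does not show equal levels.

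**Figure D4:**
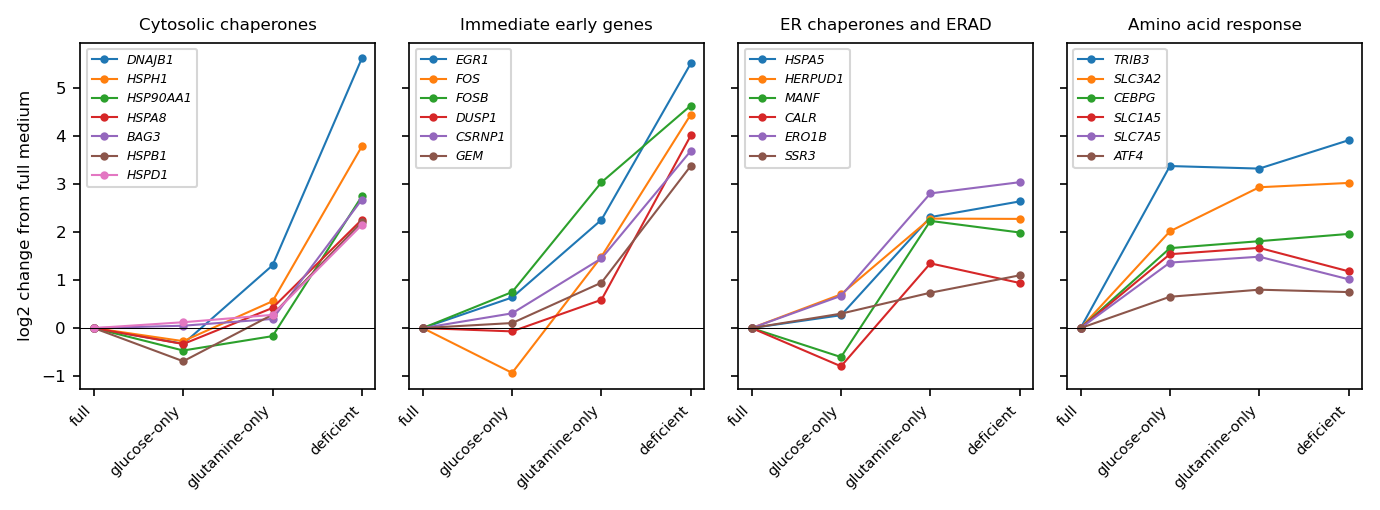
Log2 change from full medium (vertical axis) of 25 genes in the 4 media (horizontal axis), in 4 panels by group, where lines join the values of 1 gene and the order of media carries no scale. The chaperones and immediate early genes plotted are highest in deficient medium, HERPUD1 has like values in glutamine-only and deficient medium (2.28 and 2.28), and SLC1A5 is lower in deficient medium than in both single-nutrient media.

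On the lower side 11.4% of all genes were past both media, SCNN1A, SLCO4A1, LAMA5 and H6PD among them. SCNN1A, an epithelial sodium channel subunit, read 6.51, 7.24 and 6.99 in the deficient libraries and 96.5, 105 and 104 in the full-medium libraries (log2 change -3.70 ± 0.17). SLCO4A1, an organic anion transporter, went from 139 ± 16.7 to 10.2 ± 0.797 with 116 ± 4.95 in glutamine-only medium. LAMA5 was 321 ± 5.40 and 379 ± 32.1 in the single media against 82.0 ± 14.9 in deficient, -2.05 relative to the sum (adjusted p = 9.88e-11). H6PD, which makes NADPH in the ER lumen, fell by 2.24 with -0.30 and -0.57 in the single media. DPYSL2, IGFBP4 and SLC37A2 were further members. SCD was not past both, with 129.9 ± 19.1 in glucose-only and 990.1 ± 41.7 in glutamine-only medium, and differed from glucose-only medium by -0.07 (adjusted p = 0.61). TXNIP, an arrestin-family gene, was also not past both on the lower side, at 15.8 ± 1.08 in deficient and 9.36 ± 2.75 in glutamine-only medium. Of long noncoding RNAs 102 of 276 were below the sum and 11 above, against 11% and 15.5% of all genes. Their medians were 0.38, 0.43 and -0.04 in glucose-only, glutamine-only and deficient medium.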

How the data were processed

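The 12 libraries are of 4 media with 3 libraries each, and the comparison used the 2 media named above. Per the submitters' processing notes the authors used FastQC, HISAT2, Subread and DESeq2 with GRCh38.p14; their versions, the annotation release and the strand setting are not given in the sources used here. The deposited signal is a read count per gene divided by a size factor per library: 100% of values were whole reads within 0.01. From these values limma 3.58.1 (R 4.3.3) fitted 1 mean per medium to log2(value + 1) over 12 libraries, with a trended prior and adjustment over the 9270 genes kept. The addition of 1 understates changes of low genes. Of the identifiers in the file 62666 of 63187 matched a reference gene name. Promoters came from RefSeq (GRCh38.p14), where 7126 of 8539 tested protein-coding genes matched.

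The gene lists, their members and the named genes were chosen with earlier results of these data known. Genes were named by a rule. It took the 15 highest and 15 lowest called genes with a mean of at least 100 and no overlap between deficient and full-medium values. For those genes the lack of overlap was thus set by the rule. It also took up to 4 called members per list and the 10 highest and 10 lowest past both single-nutrient media. The 5 highest and lowest noncoding and mitochondrial genes per class and 30 anchors, of which 27 were tested, were added. List members that fell or did not pass, motif carriers and genes near 0 in 1 medium were named after their values were seen. Alternatives were the pseudocount, the filter, the scaling, edgeR 4.0.16 and DESeq2 1.42.0 on the recovered reads, the 6 libraries alone, the replicate letter, each library left out and a stricter threshold. The fit was tested on simulated data. Some genes are not reported here. Reads were not deduplicated by molecular identifiers as far as the labels say, so counting intervals and floors cover counting error only.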

Additional observations from a re-analysis of the deposited data

Results flagged for a closer look

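Results are listed here where the loss of one nutrient changed a gene by a different amount in the presence and in the absence of the other, by the interaction in limma's fit (Benjamini-Hochberg adjusted p under 0.05). There were 2458 such genes. Of the 27 tested reference genes listed for this comparison, 19 were among them. The interaction was above 0 for HMOX1 (3.29), HSPA6 (3.20), HSPA8 (2.17), the glucose transporter gene SLC2A3 (2.04), CDKN1A (2.02), GLUL (1.67), the sterol synthesis gene HMGCS1 (1.25), MYC (1.14), the hypoxia factor gene HIF1A (0.73), GAPDH (0.69), SLC2A1 (0.69), the oxidative stress factor gene NFE2L2 (0.57), XBP1 (0.53) and MKI67 (0.51). It was below 0 for CCND1 (-0.61), SCD (-0.62), ATF4 (-0.70), SREBF1 (-1.04) and TRIB3 (-2.79). Full-medium values of HSPA6 rest on 2 reads, so its interaction depends on the pseudocount and is no estimate of size.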

How the results depend on the processing

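Of 267 named genes, 266 of them called, 251 kept their direction and their side of the threshold in all settings run. Among genes with a mean of at least 100, 903 differed between deficient and full medium, 501 lay past both single-nutrient media and 632 had an interaction; fewer genes were tested there. At an adjusted p under 0.01 the last 2 counts were 1505 and 1496, and DESeq2 gave 1495 for the interaction. DESeq2 called 3938 genes against full medium and edgeR 5004. HIF1A changed from 0.36 to -0.0368 with equal totals (adjusted p = 0.839), where PYGL, SEC23B, MRPL32, COPZ1, CCT4, EREG, PSMB7, SEC24D, GFM1, TMED9 and MRPS6 also lost their call, because that scaling shifts the median change by -0.39. PSMD5, SLC16A7, GFM1 and MT-RNR2 lost theirs in at least 1 other setting, and the cause was not tested. Leaving out 1 library gave 4261 to 4844, 2019 to 2215 and 2143 to 2443 genes for the 3 counts.

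The labels do not say that replicate letters mark a shared culture or day. Deviations of same-letter libraries correlated from -0.184 to 0.403 with 5 of 18 pairs over 0.1, and between deficient and full medium from 0.0610 to 0.403 with 2 of 3 over 0.1, so the letters were not treated as pairs, and 7 of 12 libraries correlated best with their own letter. With the letter as a replicate block the 3 counts were 4863, 2329 and 2492. Depth limits statements on genes under 10, since 1 read is worth up to 1.30.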

Other observations

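Among groups that the text above leaves out, most held genes called in both directions. Of 31 dioxygenases that use 2-oxoglutarate, a product of glutamine, 9 rose and 7 fell (6 and 18 with equal totals). Over all genes 26.3% rose and 25.5% fell. The rises included the histone demethylase genes KDM6B (1.92 ± 0.18) and KDM7A (1.65 ± 0.21) and the hydroxylase gene JMJD6 (2.26 ± 0.22). By at least 2-fold, 5 of the dioxygenases rose and 6 fell, and their lowest change was -1.97. Of 25 BCL2 family and death receptor genes 8 rose and 5 fell (3 and 9 with equal totals), beside the same shares over all genes. The largest rise was in BCL2L11, a BCL2 family gene (1.76). The falls included the caspase activator APAF1 (-1.36 ± 0.24) and BIRC3, an inhibitor of apoptosis (-1.30 ± 0.13). Of 26 genes of TGF-beta and BMP signalling 7 rose and 9 fell (3 and 15 with equal totals). Without the 3 that passed the filter through the deficient libraries alone, 5 of 23 rose and 9 fell. ID1, a BMP target, fell (-2.11 ± 0.20), whereas its relative ID2 had the largest rise of the list (3.51). Of 16 Notch, Wnt and Hippo genes 4 rose and 6 fell (4 and 7 with equal totals), with the Wnt receptor genes FZD1 and LRP5 at -2.54 ± 0.27 and -1.90 ± 0.12.

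Of 37 splicing regulators 8 rose and 9 fell (4 and 17 with equal totals), and CLK1, a kinase of splicing factors, rose by 1.70 ± 0.18. Of 28 autophagy core genes 8 rose and 5 fell (2 and 11 with equal totals), ATG14, a subunit of the initiating lipid kinase complex, by 1.59 ± 0.28. Of 17 histone variants and histone chaperones none rose and 9 fell (0 and 15 with equal totals), with H2AZ2 at -2.04 ± 0.12. By limma 238 zinc finger genes gave 51 rises and 43 falls (27 and 77 with equal totals), and 51 microRNA genes 1 and 14 (0 and 31). In glycogen metabolism 2 of 13 rose and 4 fell (1 and 7 with equal totals), with PGM1, which interconverts glucose phosphates, at -2.12 ± 0.15 and PHKB, a phosphorylase kinase subunit, at -1.84 ± 0.17.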
